A study of Mus musculus with 8 samples.

Results

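Expression of 10 genes of the pancreatic islet was followed: the hormone genes Ins1, Ins2, Gcg, Sst, Ppy and Iapp, the granins Chga and Chgb, and the prohormone convertases Pcsk1 and Pcsk2. They were taken by gene symbol, and all 10 were found once each among the 54532 genes of the count table. The libraries came from whole orthotopic tumours of C57BL/6 mice, grown in the pancreas after implanting KPC cells, which are a line of mouse ductal pancreatic cancer. All mice had been implanted, and 4 libraries came from mice given saline (Saline 1 to 4) and 4 from mice given TLQP21 (TLQP21 1 to 4), a peptide cut from the secretory granule protein VGF, for 2 weeks. The labels give the strain but not the animals' age, and do not say whether each library is 1 animal, so p-values measure the spread between libraries. The labels name the cells as pancreatic cancer cells, but the hosts keep their own pancreas, with its islets and acinar tissue.

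Islets are clusters of endocrine cells. Beta cells make insulin and islet amyloid polypeptide, alpha cells glucagon, delta cells somatostatin and PP cells pancreatic polypeptide. Each hormone is made as a longer prohormone, packed with granins into dense-core granules, and cut there by the convertases, which is also how VGF is processed into peptides. Mice, unlike most mammals, have a pair of insulin genes.

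Islet hormone transcripts were present in every tumour library, and none of the 10 genes passed the test of TLQP21 against Saline. In the edgeR quasi-likelihood test 0 of 10 had an adjusted p under 0.05 (lowest 0.9999) and 0 of 10 an unadjusted p under 0.05 (0.161 to 0.755). Among all 18238 genes tested, the first share was 0% and the second 3.06% (558 genes). DESeq2, which called 4 of all genes, and limma's voom, which called 1, also called 0 of the 10. Exact two-sided permutation tests of the mean levels, 4 libraries against 4, gave p = 0.200 to 0.771. Saline libraries differed among themselves more than the groups did: Ins2 ran from 51.3 to 191 CPM in Saline and from 100.4 to 132 CPM in TLQP21. In bulk tumours, fewer islet cells and less hormone RNA per cell cannot be told apart.

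Ins2 (chromosome 7, 142678656 to 142743381, GRCm38) encodes one of the insulins and was the most abundant of the 10. It stood at 175, 93.7, 51.3 and 191 CPM in Saline 1 to 4 and at 121, 132, 100.4 and 106 CPM in TLQP21 1 to 4 (CPM, a gene's reads relative to the library total, scaled by the trimmed mean of M-values, TMM). Saline 1 and Saline 4 lay above every TLQP21 library and Saline 2 and Saline 3 below every one. The group means were 128 ± 66.4 and 115 ± 14.4 CPM (SD, n = 4 each), with a log2 fold change of TLQP21 over Saline of -0.15 (SE 0.34, 95% interval -0.92 to 0.61).

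Ins1 (chromosome 19, 52264323 to 52265456) encodes the other insulin. Its levels were 84.2, 41.1, 23.8 and 91.6 CPM in Saline 1 to 4 and 57.5, 59.8, 38.2 and 32.8 CPM in TLQP21 1 to 4. The libraries fell in much the same order as for Ins2, with 2 exceptions. TLQP21 4 was the lowest of its group, and Saline 2 lay above TLQP21 3 and TLQP21 4. The log2 fold change was -0.35 (SE 0.39, interval -1.22 to 0.51), and the TLQP21 range lay inside the Saline range.

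Reads of these related genes could be confused, so their transcripts in GENCODE M21 were compared. The coding sequences, 327 bases in Ins1-201 and 333 in Ins2-201, were identical in 302 of 333 aligned columns (90.7%). The longest run of coding bases that they share unchanged had 56 bases and lies in the coding sequence from base 271 to base 326 of Ins1, at the end that encodes the insulin A chain. It is shown because it is the stretch where a short read fits both genes:
Ins1 and Ins2, shared run: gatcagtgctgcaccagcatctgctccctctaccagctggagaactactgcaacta
Of the stretches of 50 bases in Ins1-201, 0.691% occurred unchanged in an Ins2 transcript, and of the stretches of 100 or 150 bases 0%. The reads were 150 bases long.

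Iapp (chromosome 6, 142298423 to 142303961) encodes islet amyloid polypeptide, or amylin, which beta cells release with insulin. Its levels were 25.80, 14.01, 9.06 and 25.76 CPM in Saline 1 to 4 and 15.3, 16.8, 16.1 and 18.4 CPM in TLQP21 1 to 4. The TLQP21 libraries lay close together, within the wide Saline range (log2 fold change -0.16, SE 0.30, interval -0.82 to 0.50). Slco1a5, a transporter gene on the opposite strand, overlaps Iapp and had 10 to 32 reads per library, against 264 to 758 for Iapp.

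Gcg (chromosome 2, 62474530 to 62483650) encodes proglucagon, the precursor of glucagon in alpha cells. Its levels were 81.5, 33.2, 26.7 and 78.7 CPM in Saline 1 to 4 and 68.6, 51.6, 38.4 and 35.2 CPM in TLQP21 1 to 4. As for the insulins, Saline 1 and Saline 4 were highest and Saline 3 lowest, and the groups overlapped (log2 fold change -0.18, SE 0.37, interval -1.01 to 0.64).

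Sst (chromosome 16, 23889573 to 23890958) encodes somatostatin, which restrains the release of insulin and glucagon. It was at 5.11, 2.07, 0.858 and 6.73 CPM in Saline 1 to 4 and at 2.98, 2.76, 2.59 and 0.926 CPM in TLQP21 1 to 4. Its log2 fold change, -0.67 (SE 0.58), was farthest from 0 among the 10 with all libraries in, with an interval from -1.97 to 0.63. Without Saline 4 it was -0.22, nearer to 0 than that of Pcsk1 (-0.31). Sst also varied most between libraries, 7.85-fold from Saline 3 to Saline 4.

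Ppy (chromosome 11, 102099930 to 102101319) encodes pancreatic polypeptide. It was at 3.37, 2.17, 0.583 and 4.31 CPM in Saline 1 to 4 and at 2.87, 2.62, 2.56 and 1.27 CPM in TLQP21 1 to 4. The lowest libraries of both groups, Saline 3 and TLQP21 4, were also the lowest of their groups for Sst. The log2 fold change was -0.16 (SE 0.50, interval -1.29 to 0.97).

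**Figure D1:**
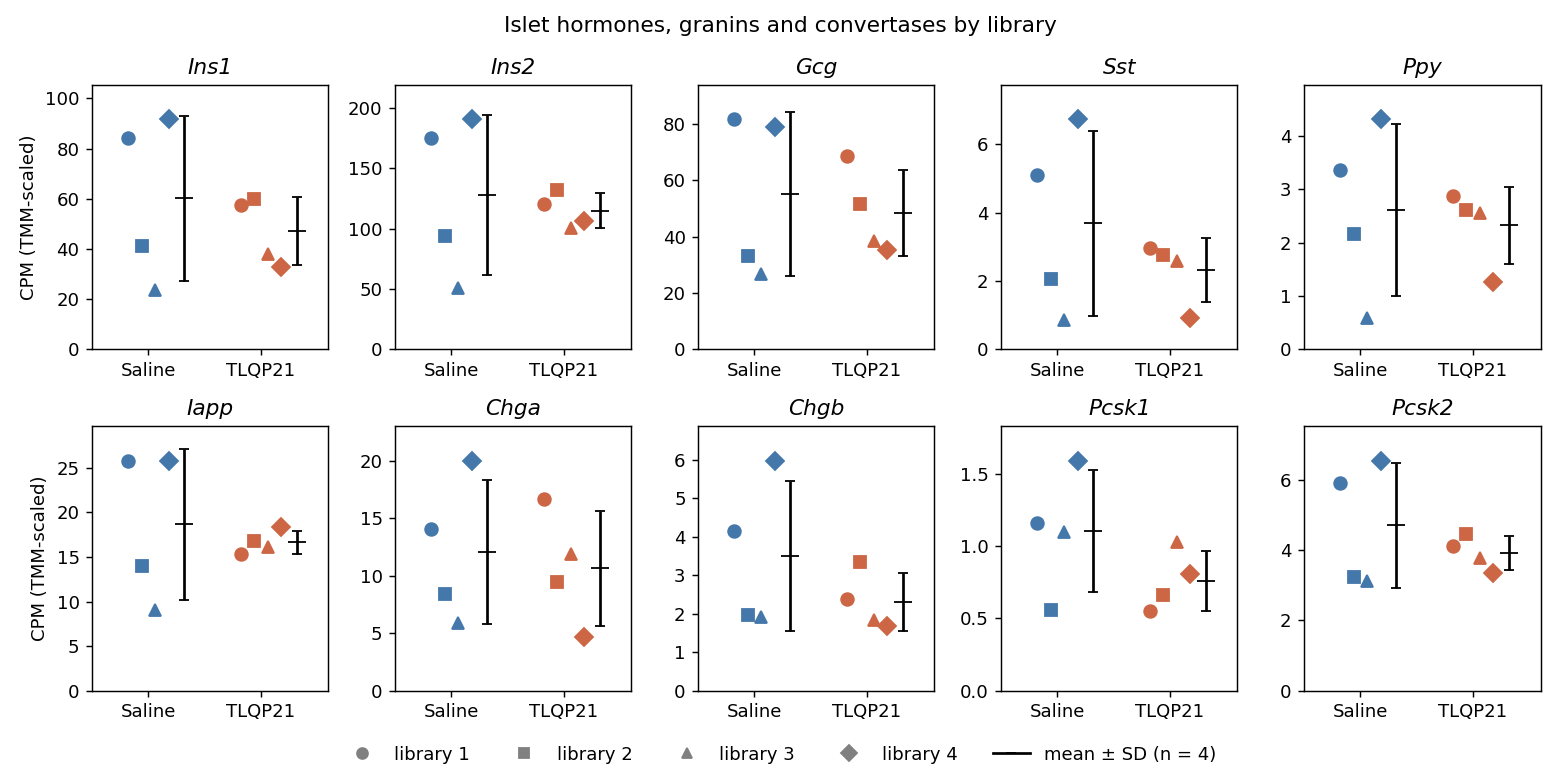
CPM (TMM-scaled, linear axis from 0) of the 10 genes in each library, Saline in blue and TLQP21 in orange, with a marker shape per replicate number and the mean ± SD of each group (n = 4) as a black bar. For Ins2 the Saline points run from 51.3 to 191 and the TLQP21 points from 100.4 to 132, and in all 10 panels the groups overlap.

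The granins are acidic proteins that help to form dense-core granules and are found in endocrine cells and neurons. Chga (chromosome 12, 102554969 to 102565028), which encodes chromogranin A, was at 14.02, 8.44, 5.87 and 20.01 CPM in Saline 1 to 4 and at 16.7, 9.41, 11.9 and 4.63 CPM in TLQP21 1 to 4. Unlike the insulins, its lowest value was in TLQP21 4. The means were 12.1 ± 6.28 and 10.6 ± 5.01 CPM, with a log2 fold change of -0.18 (SE 0.43, interval -1.15 to 0.78).

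Chgb (chromosome 2, 132781278 to 132795079) encodes chromogranin B. It was at 4.15, 1.96, 1.92 and 5.98 CPM in Saline 1 to 4 and at 2.39, 3.34, 1.83 and 1.67 CPM in TLQP21 1 to 4. TLQP21 3 and TLQP21 4 lay just below the lowest Saline library, and TLQP21 1 and 2 between the Saline values (log2 fold change -0.60, SE 0.40, interval -1.50 to 0.30).

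Both convertases were scarce. Pcsk2 (chromosome 2, 143546156 to 143816285), whose enzyme PC2 is needed to make glucagon, was at 5.92, 3.22, 3.12 and 6.54 CPM in Saline 1 to 4 and at 4.11, 4.46, 3.79 and 3.34 CPM in TLQP21 1 to 4. The log2 fold change was -0.26 (SE 0.28, interval -0.88 to 0.35), and the antisense genes Pcsk2os1 and Pcsk2os2 that overlap it had at most 5 reads in a library. Pcsk1 (chromosome 13, 75089826 to 75134861), whose enzyme PC1/3 starts the processing of proinsulin, was at 1.16, 0.560, 1.10 and 1.59 CPM in Saline 1 to 4 and at 0.547, 0.662, 1.03 and 0.803 CPM in TLQP21 1 to 4. These values rest on 16 to 42 reads per library. Saline 3, the lowest library for the insulins, was the third highest for Pcsk1 (log2 fold change -0.53, SE 0.35, interval -1.31 to 0.25).

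All 10 log2 fold changes lay below 0, with a median of -0.22, where 49.4% of all genes tested lay below 0 with a median of 0.00. The 10 genes share their libraries, and most of them, Pcsk1 least, rise and fall together across them. They are thus not 10 independent observations. The acinar genes described further on lay below 0 as well, 34 of 34. The direction also turned when single libraries were left out. Without Saline 4 it was above 0 for Ins2 (0.10), Gcg (0.037), Ppy (0.18), Iapp (0.025) and Chga (0.17). Without Saline 1 it was above 0 for Ins2 (0.041), Gcg (0.070) and Iapp (0.034), and without TLQP21 4 for Ppy (0.038) and Chga (0.063). For 0 of 10 genes were the ranges of the groups apart, against 1.66% of all genes tested. The intervals reached beyond a 2-fold decrease for 7 of the 10 genes and beyond a 2-fold increase for 0.

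**Figure D2:**
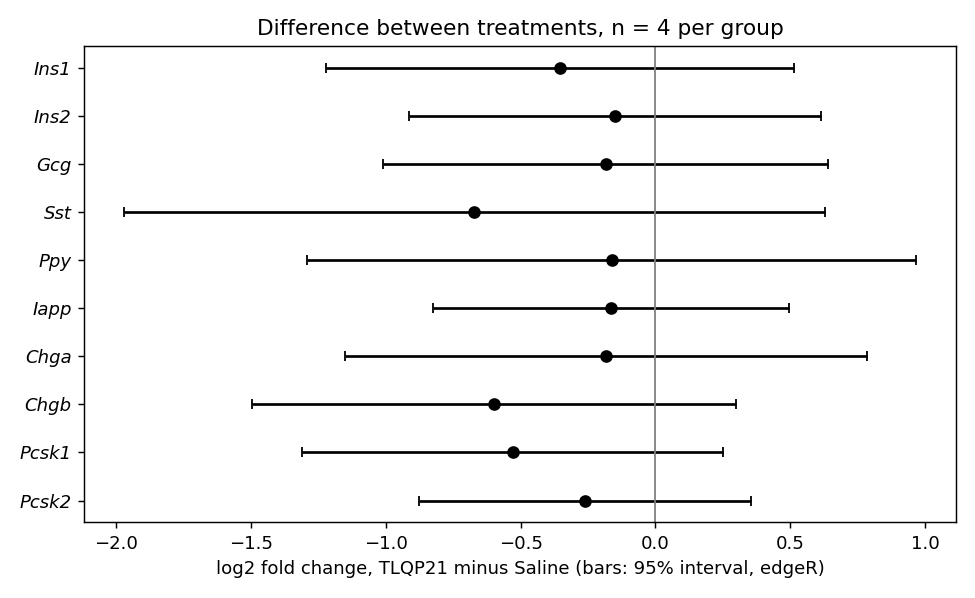
Log2 fold change of TLQP21 over Saline for the 10 genes (points) with 95% intervals from the edgeR fit (bars), n = 4 libraries per group. Points run from -0.67 for Sst to -0.15 for Ins2, and every interval includes 0.

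The spread within the groups was uneven. The SD was larger in Saline than in TLQP21 for 10 of 10 genes, which are not independent, whereas 42.4% of all genes tested had the larger SD in Saline. The tested acinar genes described further on also had the larger SD in Saline, all but Cela3a (0.310 in Saline against 0.318 CPM in TLQP21). For 7 of the 10 the TLQP21 range lay wholly inside the Saline range, the exceptions being Chga, Chgb and Pcsk1. Saline 4 was the highest library for 8 genes and Saline 1 for Gcg and Iapp. Saline 3 was the lowest for 7 genes. The summed 10 genes took 0.0406%, 0.0198%, 0.0127% and 0.0403% of counts in Saline 1 to 4 and 0.0294%, 0.0294%, 0.0217% and 0.0203% in TLQP21 1 to 4. This share was thus lowest in Saline 3 and highest in Saline 1 and 4.

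Levels of different genes were compared as RPKM, CPM per kilobase of the gene length given in the table. Mean RPKM over the 8 libraries was 92.5 for Ins2, 52.8 for Ins1, 34.6 for Gcg, 18.1 for Iapp, 4.94 for Ppy, 4.16 for Sst, 4.12 for Chga, 1.06 for Chgb, 0.545 for Pcsk2 and 0.166 for Pcsk1. Each neighbour in this order was higher than the next in 8 of 8 libraries, except that Ppy exceeded Sst in 5 of 8 and Sst exceeded Chga in 3 of 8. Those 3 genes could not be ordered. The table's lengths span all annotated exons, such as 1312 bases for Ins2 against 478 in Ins2-201, so the order depends on them. By mean RPKM the hormone genes were thus above Pcsk1 and Pcsk2. In CPM, which takes no account of length, Pcsk2 (means of 4.70 in Saline and 3.92 in TLQP21) was above Sst (3.69 and 2.31) and Ppy (2.61 and 2.33). The other hormone genes were above Pcsk2 in CPM too.

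Expressed as RPKM in percent of Ins2 in the same library, the beta cell genes varied least, 1.39-fold for Iapp and 1.56-fold for Ins1 between the lowest and highest library. Iapp was at 17.1 to 23.8% of Ins2, and Ins1 at 49.1 to 62.1% in 7 libraries and 39.8% in TLQP21 4. Gcg, the alpha cell gene, was at 29.0 to 49.9%, lowest in TLQP21 4 and highest in TLQP21 1. Sst ran from 1.58% in TLQP21 4 to 6.43% in Saline 4. Ppy was at 2.99% in Saline 3 and 3.12% in TLQP21 4, against 5.05 to 6.69% in the others. Chga ran from 2.07% in TLQP21 4 to 6.58% in TLQP21 1. Pcsk2 was at 1.01% in Saline 3 and at 0.520 to 0.626% in the others, and Pcsk1 at 0.501% in Saline 3 and 0.106 to 0.240% elsewhere. The proportions of the groups overlapped for all 9 genes.

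**Figure D3:**
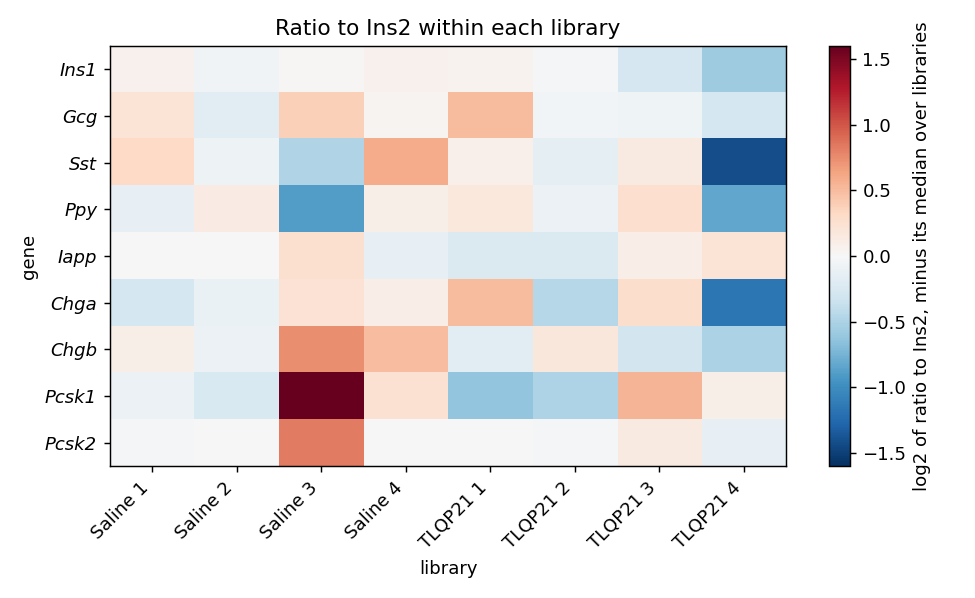
RPKM of 9 genes relative to Ins2 within each library, as log2 of the ratio minus its median over the 8 libraries (color). Red cells stand for a higher and blue cells for a lower proportion: the red Pcsk1 and Pcsk2 cells in Saline 3 are 0.501% and 1.01% of Ins2, and the blue Sst and Chga cells in TLQP21 4 are 1.58% and 2.07%.

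A pair of libraries stood apart from the rest in other genes. In TLQP21 4, 24 genes with a mean of at least 5 CPM lay more than 4-fold below every other library, against 0 to 7 such genes in the other libraries. Among them was Gnas, which encodes the stimulatory G protein subunit and a neuroendocrine secretory protein, named here after its values were seen, at 7.13 CPM against 60.2 to 90.8 CPM in the other 7 libraries. Mitochondrial transcripts took 2.80% of counts there, against 1.74 to 2.21% in the other 7 libraries. In Saline 2, hepatocyte genes took 0.429% of counts, against at most 0.000565% elsewhere. Total counts ran from 28358465 to 33536087 per library, and all 4 TLQP21 libraries were deeper than all 4 Saline ones (exact permutation p = 0.0286, the smallest that 4 against 4 allows). Xist exceeded Y-linked reads in libraries 1 and 2 of each group (9960 to 10625 Xist reads) and Y-linked reads exceeded Xist in libraries 3 and 4 (2027 to 2247 reads).

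Within the Xist libraries log2 ratios of TLQP21 to Saline ran from -0.42 to 0.20, with 7 of 10 below 0, and within the Y libraries from -0.96 to 0.18, with 7 of 10 below 0. Chgb, for example, was at -0.01 and -0.96, and Gcg at 0.19 and -0.32. In an edgeR test of whether the treatment difference was unequal between these kinds, unadjusted p was 0.207 to 0.943 for the 10 genes (lowest adjusted p = 0.842), and 0% of all genes were called. Of the 10, 9 had a lower mean in the Y libraries, Pcsk1 being the exception (1.13 against 0.732 CPM), and 0 of 10 differed between the kinds (lowest edgeR adjusted p = 0.415, for Pcsk1, where 0.373% of all genes were called).

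Transcripts of acinar cells, which make digestive enzymes and surround the islets, also varied between libraries, and 0 of 10 correlations of the islet genes with them passed the adjusted threshold. The acinar level, the mean log2 CPM of 34 tested acinar genes, was 7.68 ± 0.90 in Saline and 7.33 ± 0.76 in TLQP21 (SD, n = 4 each). Saline 1 had the second highest Ins2 level but an acinar level of only 6.92, whereas Saline 2 had 7.87 and less Ins2. Over the 8 libraries Ins2 and the acinar level had Pearson's r = 0.27 (exact permutation p = 0.520) and Spearman's rho = 0.12 (p = 0.793). For Gcg these were 0.35 (exact p = 0.399) and 0.21 (p = 0.619). Chga had the highest of the 10 correlations computed, with r = 0.72 (exact permutation p = 0.0483, 0.483 adjusted over the 10) and rho = 0.69 (p = 0.0694, adjusted 0.694). Without the libraries farthest from the median acinar level, Saline 4 and TLQP21 4, r was -0.10 for Ins2, -0.07 for Gcg and 0.37 for Chga, so the Chga relation rested in part on these libraries. The Xist and Y libraries are too few, with 4 of each, for a correlation within a kind.

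**Figure D4:**
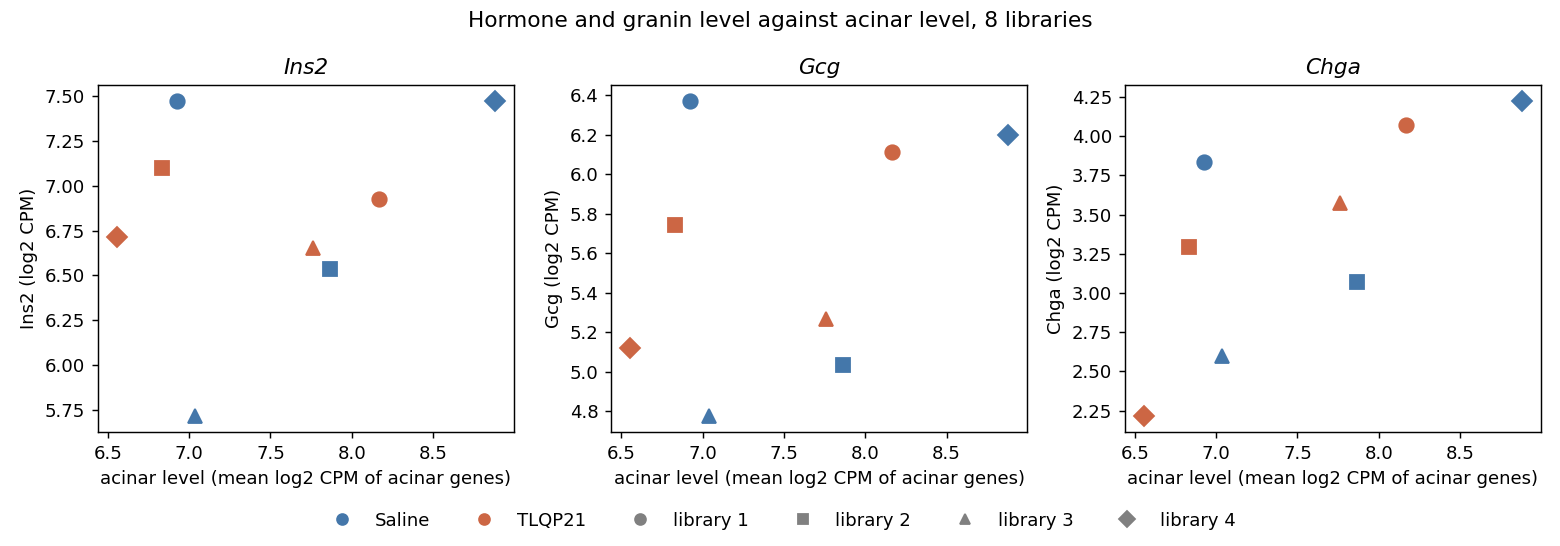
Log2 CPM of Ins2, Gcg and Chga (vertical axes) against the acinar level, the mean log2 CPM of 34 acinar genes (horizontal axis), for the 8 libraries, with color for the treatment and shape for the replicate number. Saline 1 (blue circle) pairs high Ins2 with a low acinar level of 6.92, and r is 0.27, 0.35 and 0.72 in the panels from left to right.

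The hormone genes moved together across libraries. Over the 45 pairs of the 10 genes, the median Pearson correlation of log2 CPM over 8 libraries was 0.83, and 25 pairs were above 0.8. The highest, 0.95, included Ins2 with Iapp, Ins1 with Gcg, Chgb with Pcsk2 and Ins1 with Sst. Pcsk1 stood out, with correlations of 0.03 with Ppy to 0.52 with Pcsk2, and Iapp with Chga were at 0.54. As a description over 8 shared libraries, the 5 genes of 18237 most like Ins2 were Il11, an interleukin (r = 0.96), Iapp (0.95), Nova1, a splicing factor of neurons (0.95), Sik3, a kinase (0.95), and Ins1 (0.94). Ppy came 16th, Gcg 26th and Pcsk2 49th. Among those most like Chga were Grwd1 (r = 0.98), Pi16 (0.97), Draxin (0.95) and Mn1 (0.95), none of them an islet hormone. The gut and islet peptide gene Pyy came 6th (0.95) and Sst 21st (0.93).

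Promoter sequence was looked at because most of the 10 genes moved together. RefSeq's table (GRCm38.p6) held a window for 9 of the 10 genes, all but Ins2. The 250 bases before RefSeq's start, which can differ from the gene's end printed above, were searched on both strands. The first motif was an E-box, which reads CATCTG. The second was the core of the A-box, which reads TAAT. The third was the palindromic cyclic AMP response element, which reads TGACGTCA. The E-box and A-box are classic motifs of insulin gene regulation, bound by NeuroD1 and PDX1, and the response element is bound by CREB. The E-box lay in 3 of 9 windows, those of Ins1, Iapp and Gcg, and in 14.4% of 32851 windows in the table. The A-box core lay in 6 of 9, against 54.9%, and the only overlap between matches was between A-box cores on opposite strands in Iapp. The stretches from -190 to -6, counted from the start, are shown with E-boxes and A-box cores of either strand in capitals:
Ins1 (chr19:52264107-52264291, plus strand): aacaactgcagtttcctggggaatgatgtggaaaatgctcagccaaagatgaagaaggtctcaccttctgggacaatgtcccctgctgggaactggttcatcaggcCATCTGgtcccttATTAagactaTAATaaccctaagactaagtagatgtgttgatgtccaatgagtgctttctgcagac
Iapp (chr6:142298235-142298419, plus strand): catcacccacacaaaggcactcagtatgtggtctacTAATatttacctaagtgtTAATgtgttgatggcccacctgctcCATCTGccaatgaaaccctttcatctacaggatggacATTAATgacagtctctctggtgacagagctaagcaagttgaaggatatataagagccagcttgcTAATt
Gcg (chr2:62483659-62483843, minus strand): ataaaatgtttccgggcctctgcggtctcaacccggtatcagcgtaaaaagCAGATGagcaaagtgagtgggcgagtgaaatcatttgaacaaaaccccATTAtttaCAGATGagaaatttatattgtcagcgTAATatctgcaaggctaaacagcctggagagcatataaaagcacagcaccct
The Ins1 stretch held 1 E-box, the Iapp stretch 1 and the Gcg stretch 2. The cyclic AMP response element lay in 3 of 9 windows, those of Sst, Chgb and Pcsk1, and in 1.55% of all windows. By the gene coordinates printed above, this element lies inside the gene for Sst and Chgb and before it for Pcsk1. It began at -48 in Sst, -72 in Chgb and -78 in Pcsk1, and is in capitals in these 30 bases:
Sst (chr16:23890874-23890903, minus strand): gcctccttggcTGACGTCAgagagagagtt
Chgb (chr2:132781559-132781588, plus strand): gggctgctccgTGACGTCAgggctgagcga
Pcsk1 (chr13:75089768-75089797, plus strand): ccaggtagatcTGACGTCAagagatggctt
Across the 8 libraries Sst and Chgb correlated at 0.84, and Pcsk1 with Sst at 0.29 and with Chgb at 0.49. The E-box and A-box are known from insulin genes, so their matches in Ins1 were to be foreseen. For no motif was the share among the 9 windows tested against that of all windows. A match is only a description of these letters.

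Many other islet genes were near the limit of detection. Of 28 listed islet identity and function genes, 27 were found and 23 tested, of which 0 were called, 5 lay above 0 and 18 below 0 (median log2 fold change -0.15, against 0.00 over all genes). Transcription factors that define endocrine cells were low: Nkx6-1 was at 0.0927 to 0.983 CPM, Neurod1 at 0.102 to 0.567 CPM and Mafa, an activator of insulin genes, at 0.309 to 1.56 CPM. Pax4 had 0 reads. Slc30a8, the zinc transporter of insulin granules, was at 0.275 to 0.983 CPM, and G6pc2 at 0.910 to 2.65 CPM (these genes were named after their values were seen). Pdx1, which ductal tumours also express, was at 23.4 to 33.3 CPM: it was 29.1 CPM in Saline 3, where Ins2 was lowest, and 25.3 CPM in Saline 1. In the order of likeness to Ins2 over the 8 libraries, G6pc2 came 53rd (r = 0.87) and Slc30a8 185th (0.79), both genes of beta cells. Other beta cell genes of the list were less alike: Abcc8 came 1432nd (0.51), Mafa 3780th (0.26), Nkx6-1 5713th (0.12), Glp1r 5930th (0.11), Pdx1 9908th (-0.14), Slc2a2 10518th (-0.18) and Kcnj11 16977th (-0.61).

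The smallest p-values of this list in edgeR belonged to Ttr, with a log2 fold change of -3.43 (SE 1.19) and an unadjusted p of 0.0169, and Slc2a2, the glucose transporter GLUT2, with -1.75 (SE 0.78) and 0.0499. Hepatocytes make both. Both were highest in Saline 2, the library with hepatocyte transcripts: Ttr was at 125 CPM there and at 2.50 to 4.42 CPM elsewhere, and Slc2a2 at 8.40 CPM and 0.582 to 1.26 CPM elsewhere. Neither passed the adjusted threshold. Of 7 hepatocyte genes, Ttr among them, 5 were tested, and all 5 lay below 0 (median -6.45) with an unadjusted p under 0.05 and 0 called, and Alb stood at 2543 CPM in Saline 2. Next came Ero1lb, an oxidase for disulfide bonds in proinsulin, at 42.7 ± 9.47 and 35.4 ± 4.28 CPM.

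Of 10 other granins and granule processing genes, 8 were tested, 5 below 0 and 3 above, with 0 called. Scg2, a granin, had means of 5.68 ± 2.14 CPM (Saline) and 4.34 ± 0.624 CPM (TLQP21), with a log2 fold change of -0.39 (SE 0.27), Pcsk1n, an inhibitor of PC1/3, at 2.90 ± 1.97 and 1.87 ± 1.04 (-0.64, SE 0.59), and Scg3 at 1.37 ± 0.785 and 1.14 ± 0.273 (-0.26, SE 0.39). Saline 4 had the highest value of all 3. Vgf, the gene of the TLQP21 precursor and itself a granin, had 68 reads in all and was not tested. Cpd, a carboxypeptidase that trims cut peptides, was the most abundant at 256 ± 12.2 and 257 ± 53.0 CPM (0.01, SE 0.14). The 7 convertases outside the islet pair were all tested, 5 above 0 and 2 below, with 0 called. Furin, the widely expressed one, was at 222 ± 33.9 and 199 ± 30.6 CPM, well above Pcsk1 and Pcsk2.

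Genes of other cells that can make granins were also measured. Of 10 neuron and adrenergic genes, Chat had 0 reads and Th, Dbh and Elavl4 8 to 26 reads in all. The summed list, mostly Tubb3 (31.1 CPM on average), ran from 33.3 to 43.2 CPM in Saline and 29.7 to 41.6 in TLQP21. Of 10 Schwann cell genes, Sox10 had 12 reads in all, and the summed list, led by Erbb3 and Mbp, ran from 162 to 188 and 161 to 182 CPM. None was called in either list, with medians of 0.02 and -0.05. Of 15 regulated exocytosis genes 13 were tested, 10 below 0 and 3 above, with 0 called (median -0.07), and Vamp2, a vesicle SNARE, had the smallest p (-0.21, SE 0.17). Tumour epithelial genes, by contrast, were abundant and even, at a sum of 6421 to 6832 CPM in Saline and 6765 to 7113 in TLQP21, with Krt8, a keratin of simple epithelium, highest at 1500 ± 48.4 and 1603 ± 73.8 CPM. Of 35 acinar genes, 34 were tested and all 34 lay below 0 (median -0.44), with 0 called. The most abundant was Ctrb1, a chymotrypsinogen, at 8767 ± 6133 and 6458 ± 3046 CPM, and the summed list ran from 16515 to 74144 and 15254 to 41288 CPM. With the acinar level as a covariate in the edgeR fit, the log2 fold change was -0.02 for Chga, -0.06 for Ins2, -0.10 for Gcg and 0.044 for Ppy. In that fit it stayed below 0 for Iapp (-0.12), Pcsk2 (-0.20), Ins1 (-0.24), Chgb (-0.46), Sst (-0.46) and Pcsk1 (-0.48). Again 0 of 10 islet genes were called. With the acinar genes left out of the table, all 10 lay below 0 and 0 were called.

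**Figure D5:**
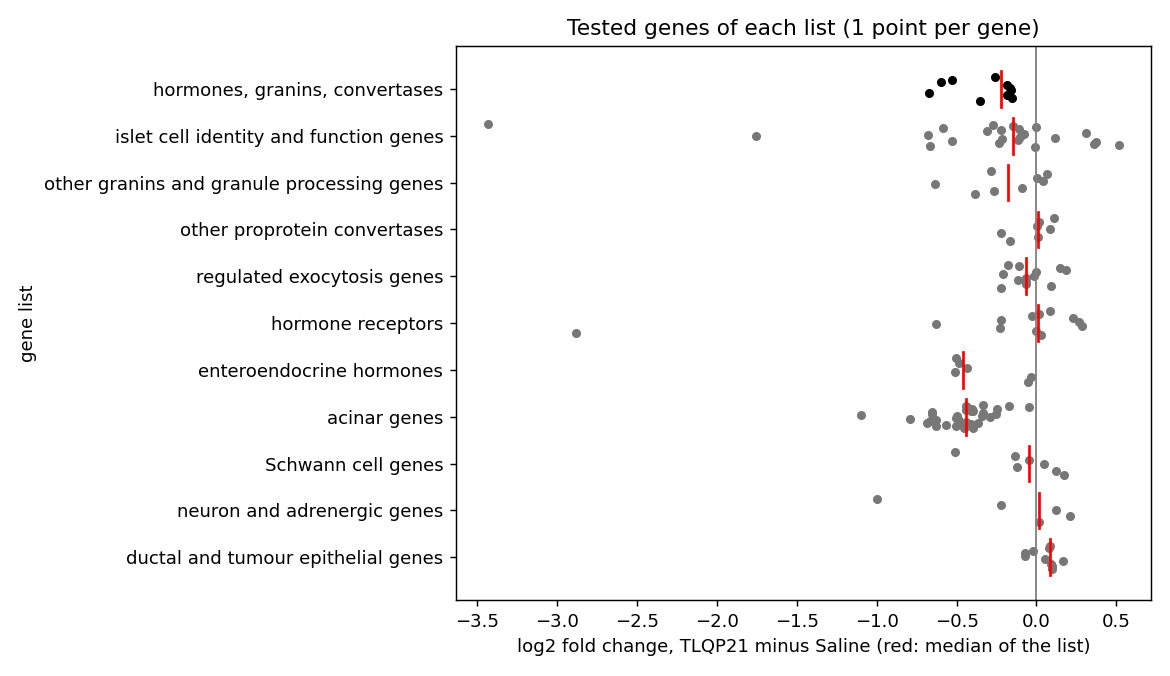
Log2 fold change of TLQP21 over Saline (horizontal axis) for each tested gene of the islet members (black) and of 10 other gene lists (grey), 1 point per gene, with the median of each list as a red line. The members' median is -0.22, the acinar median -0.44 and the convertase median 0.01, and the points near -3.4 and -2.9 are Ttr and Gcgr, which are highest in Saline 2.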

How the data were processed

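RNA sequencing (150 bp paired ends, NEBNext Ultra kit, per the labels' protocols) gave 1 library per sample. The authors deposited raw read counts per gene. The submitters' processing notes name GRCm38 as the genome, and as tools featureCounts 1.5.0-p3, DESeq2 1.32.0 and HISAT2 2.0.5. Strand setting and annotation release are not given in the sources used here, so reads of overlapping genes are uncertain. Coordinates are those of the table, and 98.3% of its identifiers found in GENCODE M21 had the same position.

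Genes were filtered with edgeR's default by group (18238 of 54532 kept, all 10 islet genes among them), scaled by TMM and tested with edgeR 4.0.16 (quasi-likelihood, no covariate, R 4.3.3), adjusted by Benjamini-Hochberg over all genes at 0.05. The SE is the log2 fold change over the root of F. Log2 CPM used a prior count of 2. Correlations had exact two-sided permutation p over all pairings. The test was checked on simulated data. The test of unequal treatment differences between Xist and Y libraries, and that between these kinds, were added after the data were seen. The alternatives were DESeq2 1.42.0, limma 3.58.1, other scalings and filters, a replicate block, covariates and each library left out.

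The islet genes and all gene lists were chosen with earlier results of these data known. Besides the 10 genes, the text names per list up to 3 genes with the smallest p and the most abundant, and the 5 genes most like Ins2 and Chga, of which 1 whose deposited symbol reads as a date is left out. The list gene Ero1b was not found beside Ero1lb. Some genes of the lists are not reported here by name. No library was a copy of another (chi-square at least 19.0 times its degrees of freedom for every pair). Same-numbered libraries were not paired by the labels.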

Additional observations from a re-analysis of the deposited data

Results flagged for a closer look

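In groups of 4 libraries, a library was taken to lie apart when its gap to the nearest value exceeded Dixon's 95% critical share of the group's range. Of 46 such groups 4 met this, where chance gives about 1 in 20. The Gnas groups were checked with the Gnas values already seen. That flag was settled beforehand, so the count of flags cannot be set against chance. Saline 3 lay apart in Pcsk1 (0.501% of Ins2 RPKM) and in Pcsk2 (1.01%), and it was also the library with the least Ins2, 51.3 CPM, which is the denominator of both. TLQP21 4 lay apart in Gnas (7.13 CPM) and in the mitochondrial share of counts (2.80%). In the same library Sst, Chga and Ins1 were lowest relative to Ins2 (1.58%, 2.07% and 39.8%), and whether these values go together was not tested.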

How the results depend on the processing

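Of the islet genes 0 of 10 were called under any alternative run, and the smallest unadjusted p in any was 0.0437, for Pcsk1 without Saline 2 (adjusted p = 0.680, edgeR). Over all genes edgeR called 0 in every setting, DESeq2 called 4 and limma's voom with quality weights 1. Of 180 values of the 10 genes under alternatives, 164 kept their direction and 16 turned. With limma's voom the log2 fold change was 0.055 for Ins2, 0.017 for Gcg and 0.14 for Ppy. With the replicate block it was 0.018 for Ins2 and 0.040 for Ppy, and the block changed no call. With the acinar level as a covariate it was 0.044 for Ppy and -0.02 for Chga, and ran from -0.48 (Pcsk1) to -0.06 (Ins2) for the others. Leaving out each library in turn gave -0.41 to 0.10 for Ins2, -0.41 to 0.070 for Gcg, -0.49 to 0.18 for Ppy, -0.39 to 0.034 for Iapp and -0.48 to 0.17 for Chga. The cause was not tested. Ins1, Sst, Chgb, Pcsk1 and Pcsk2 stayed below 0 in all 18 alternatives, with leave-one-out ranges of -0.62 to -0.08, -1.0003 to -0.22, -0.83 to -0.22, -0.75 to -0.31 and -0.41 to -0.06, and values of -0.020, -0.16, -0.056, -0.39 and -0.044 with limma's voom. Same-numbered libraries had correlated deviations of 0.11, 0.19, 0.27 and -0.05. The fourth pair was below 0.1, and differently numbered libraries of the same Xist or Y kind reached 0.16 to 0.30, so the numbers were not taken to pair them. Pcsk1 had the fewest reads of the 10 genes, 16 to 42 per library.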

Other observations

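Gut hormone genes were at low levels in the same tumours. Of 11 listed, 6 were tested and all 6 lay below 0 (median log2 fold change -0.46), with 0 called by edgeR and 0 at an unadjusted p under 0.05. Pyy, a peptide of gut and islet endocrine cells, was the most abundant, with means of 3.80 ± 2.09 CPM (Saline) and 2.66 ± 1.34 CPM (TLQP21), with its highest value in Saline 4 (6.51 CPM) and its lowest in TLQP21 4 (0.957 CPM). Tph1, the enzyme of serotonin synthesis, was at 0.954 ± 0.510 and 0.681 ± 0.111 CPM, and the neuropeptide gene Npy at 0.415 ± 0.146 and 0.289 ± 0.104 CPM.

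Among 16 listed genes of hormone receptors and their partner proteins, not all of them for islet hormones, 12 were tested, with 6 above and 6 below 0 and 0 called. The insulin receptor Insr was the most abundant, at 94.5 ± 4.61 and 96.5 ± 18.4 CPM. Ramp1, a partner protein of the amylin and CGRP receptors, had means of 35.5 ± 1.37 CPM (Saline) and 41.7 ± 3.50 CPM (TLQP21), a log2 fold change of 0.23 (SE 0.091) and an edgeR unadjusted p of 0.0307, with overlapping groups. Gcgr, the glucagon receptor, had an edgeR unadjusted p of 0.0357. Saline 2, which also held hepatocyte transcripts, had 7.88 CPM, and the other libraries had 0.133 to 0.643 CPM. Calcrl, the receptor that Ramp1 partners, was at 12.80 ± 1.16 and 10.96 ± 1.13 CPM.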
